A study of Homo sapiens with 6 samples.

Results

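The genes described here carry glucose into the cell, break it down to pyruvate, and send the pyruvate either to lactate or into the mitochondrion. They are 33 of the 31369 genes in the count table, taken by gene symbol from a list of glucose transporters, enzymes of glycolysis, lactate genes and genes of pyruvate dehydrogenase. All 33 had enough counts to enter the test, in which 15878 genes were compared. The study sequenced messenger RNA of HK-2 cells, an established human line of kidney tubule epithelium, in 2 groups of 3 samples at Day 10. In the control group (NC) the genotype label is WT. In the other group (OE) the genotype label is PPM1K overexpress. The treatment entry of all 6 samples reads Chronic kidney disease, and all were grown in DMEM with fetal bovine serum. PPM1K was delivered as a plasmid with a lipid transfection reagent. Whether NC received an empty plasmid is not given in the sources used here. The sample titles name shControl and shPPM1K, while the genotype entries and the PPM1K counts are those of overexpression. PPM1K, a mitochondrial protein phosphatase that switches on the dehydrogenase complex for branched-chain amino acids, was counted 37, 19 and 53 times in the NC samples and 3294, 3531 and 2919 times in the OE samples, with samples here and below in the order of their replicate numbers 1 to 3. The log2 fold change, given throughout as OE over NC, was 6.39 for PPM1K (SE 0.13, adjusted p = 1.1e-18). Every adjusted p comes from the quasi-likelihood test of edgeR on the counts, with the Benjamini-Hochberg correction over all genes tested.

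Glycolysis turns glucose into pyruvate in the cytosol. Lactate dehydrogenase converts pyruvate and lactate into each other, and monocarboxylate transporters carry both across the plasma membrane. Pyruvate dehydrogenase is the mitochondrial complex that makes acetyl-CoA from pyruvate. Its kinases (PDK) switch the complex off by phosphorylation and its phosphatases (PDP) switch it on again. Tubule epithelium of the healthy kidney relies largely on fatty acid oxidation, while cell lines in culture use much glucose. Many genes of glycolysis are known targets of hypoxia-inducible factors and of MYC. The letters ACGTG and CACGTG are among the forms of the motifs that these factors bind.

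Promoters of LDHA, PGK1 and PDK2, which fell together, and of HK2, which rose, are shown so that the letters searched can be seen in place. Where a gene has several windows in the promoter table, the one with ACGTG listed before the others was taken. Each line gives 250 bases upstream of the RefSeq start on GRCh38.p14, plus strand, at chr11:18394313-18394562 for LDHA, chrX:78103998-78104247 for PGK1, chr17:50095101-50095350 for PDK2 and chr2:74833877-74834126 for HK2. Capitals mark ACGTG or its reverse complement CACGT.
LDHA: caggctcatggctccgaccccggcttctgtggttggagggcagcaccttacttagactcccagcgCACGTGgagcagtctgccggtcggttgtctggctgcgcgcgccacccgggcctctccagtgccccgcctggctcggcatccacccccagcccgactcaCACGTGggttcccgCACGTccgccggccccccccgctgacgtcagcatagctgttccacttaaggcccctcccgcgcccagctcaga
PGK1: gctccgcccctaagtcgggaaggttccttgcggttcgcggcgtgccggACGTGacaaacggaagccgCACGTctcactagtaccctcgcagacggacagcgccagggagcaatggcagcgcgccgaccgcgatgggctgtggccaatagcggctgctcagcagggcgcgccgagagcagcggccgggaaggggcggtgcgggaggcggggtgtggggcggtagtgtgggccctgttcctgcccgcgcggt
PDK2: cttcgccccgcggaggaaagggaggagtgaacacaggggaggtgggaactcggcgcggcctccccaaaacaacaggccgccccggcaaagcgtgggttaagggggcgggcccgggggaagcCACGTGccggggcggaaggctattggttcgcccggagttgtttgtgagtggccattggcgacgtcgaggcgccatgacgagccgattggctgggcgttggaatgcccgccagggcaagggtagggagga
HK2: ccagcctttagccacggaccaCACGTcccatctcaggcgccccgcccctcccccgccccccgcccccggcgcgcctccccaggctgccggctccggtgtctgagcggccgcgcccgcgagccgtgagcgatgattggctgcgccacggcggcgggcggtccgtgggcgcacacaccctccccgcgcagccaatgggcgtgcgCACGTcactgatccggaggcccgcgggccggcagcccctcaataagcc
The window of PDK4 holds no match to ACGTG. The letters were searched on both strands in windows of 300 bases, 250 before and 50 after each RefSeq start. Such windows exist for 29 of the 33 genes, 57 windows in all, and not for SLC16A1, PDP1, PFKFB2 and SLC2A3. ACGTG lay in 40.4% of the 57 windows, against 21.4% of all 35116 windows and 25.6% of those of tested genes. The longer CACGTG, each of which also holds ACGTG, lay in 15.8%, against 7.26% of all windows and 9.46% of those of tested genes. TGATGNAA, a core of the amino acid response element, lay in 2 of the 57 windows (3.51%), against 3.62% of all and 2.03% of tested. Both were windows of HK1 that overlap. Some windows of ALDOA and of PFKM overlap too, so 1 site can be counted more than once. Of the 29 genes with a window, 19 had ACGTG in at least 1 window. Of the 19 genes that were lower in OE, 13 did. HK2, which was higher, has ACGTG as well. Genes with more windows have more room for a match, and the share by gene over all tested genes was not computed. Whether ACGTG goes with the falls was not tested. A match describes the letters and no binding was measured. Other forms of the motifs of these factors were not searched, so a window without ACGTG may still hold one.

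Between 34635770 and 39850802 reads were counted per sample. For NC replicate 2, 26478 genes had at least 1 count, against 22094 to 22913 in the other samples. By the read statistics of the paper, NC replicate 2 also had the largest shares of intronic, intergenic and antisense reads. Its share of spliced reads was the smallest of all samples. The epithelial keratins KRT8, KRT18 and KRT19 had a mean of 289, 180 and 212 FPKM in NC, EPCAM 122 and the kidney factor PAX8 27.7. CDH1, the cadherin of epithelium on the same list, was low, with 0.313 FPKM in NC and 26 to 80 counts per sample. FPKM scales the fragments of a gene by its transcript length and by the sequencing depth, so it allows levels of different genes to be compared. Defining genes of the mature proximal tubule were almost absent, with at most 1 count for LRP2, 6 for CUBN and 5 for AQP1 in any sample. Among markers of other cells, PTPRC (leukocytes) had at most 2 counts and COL1A1 (fibroblasts) 219 to 483. COL1A1, KRT8, KRT19, EPCAM, CDH1 and GGT1 were lower in OE, and PAX8, PECAM1 and VWF were higher. Over the lists, 4 of 6 epithelial markers tested fell and 1 rose, 1 of 3 tubule markers fell, and 2 of 4 markers of other cells rose and 1 fell. At the same adjusted p under 0.05, 23.7% of all tested genes fell and 24.9% rose, and lists this short cannot be told from those shares. The summed CPM of the epithelial list was 3608 to 3974 in NC and 2915 to 3185 in OE, that of the tubule list 1.70 to 2.47 and 1.46 to 1.62, and that of other cells 17.9 to 19.0 and 13.2 to 15.1. The part of these markers in the results below was not tested. In such bulk RNA, fewer cells of a type and less RNA per cell cannot be told apart. The sources do not say whether the 3 samples of a group came from separate cultures, so the p-values measure the spread between these samples.

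More of these genes were lower than higher in the cells that overexpressed PPM1K. LDHA, PGK1, the liver type of phosphofructokinase and the kinases PDK2 and PDK4 gave the largest falls, and HK2, the lactate transporter SLC16A1 and PFKFB2 were the genes that rose. At an adjusted p under 0.05, 19 of the 33 fell (57.6%), while 23.7% of all tested genes did. In the other direction 3 rose (9.09%), against 24.9% of all tested genes, and 11 did not pass the test. The median log2 fold change of the 33 was -0.31 and that of all tested genes -0.0032. The 3 OE samples all lay below the 3 NC samples for 17 of the genes and all above for 5, against 27.1% and 28.2% of all tested genes. PDK2 and PDK4 also passed the stricter rule of the study, a change of more than 2-fold. Both fell. Among all tested genes 3.79% fell and 1.73% rose past 2-fold. Without NC replicate 3 or without OE replicate 2 the count past 2-fold was 1, since PDK2 then fell by 0.98 and by 0.96 on the log2 scale.

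**Figure D1:**
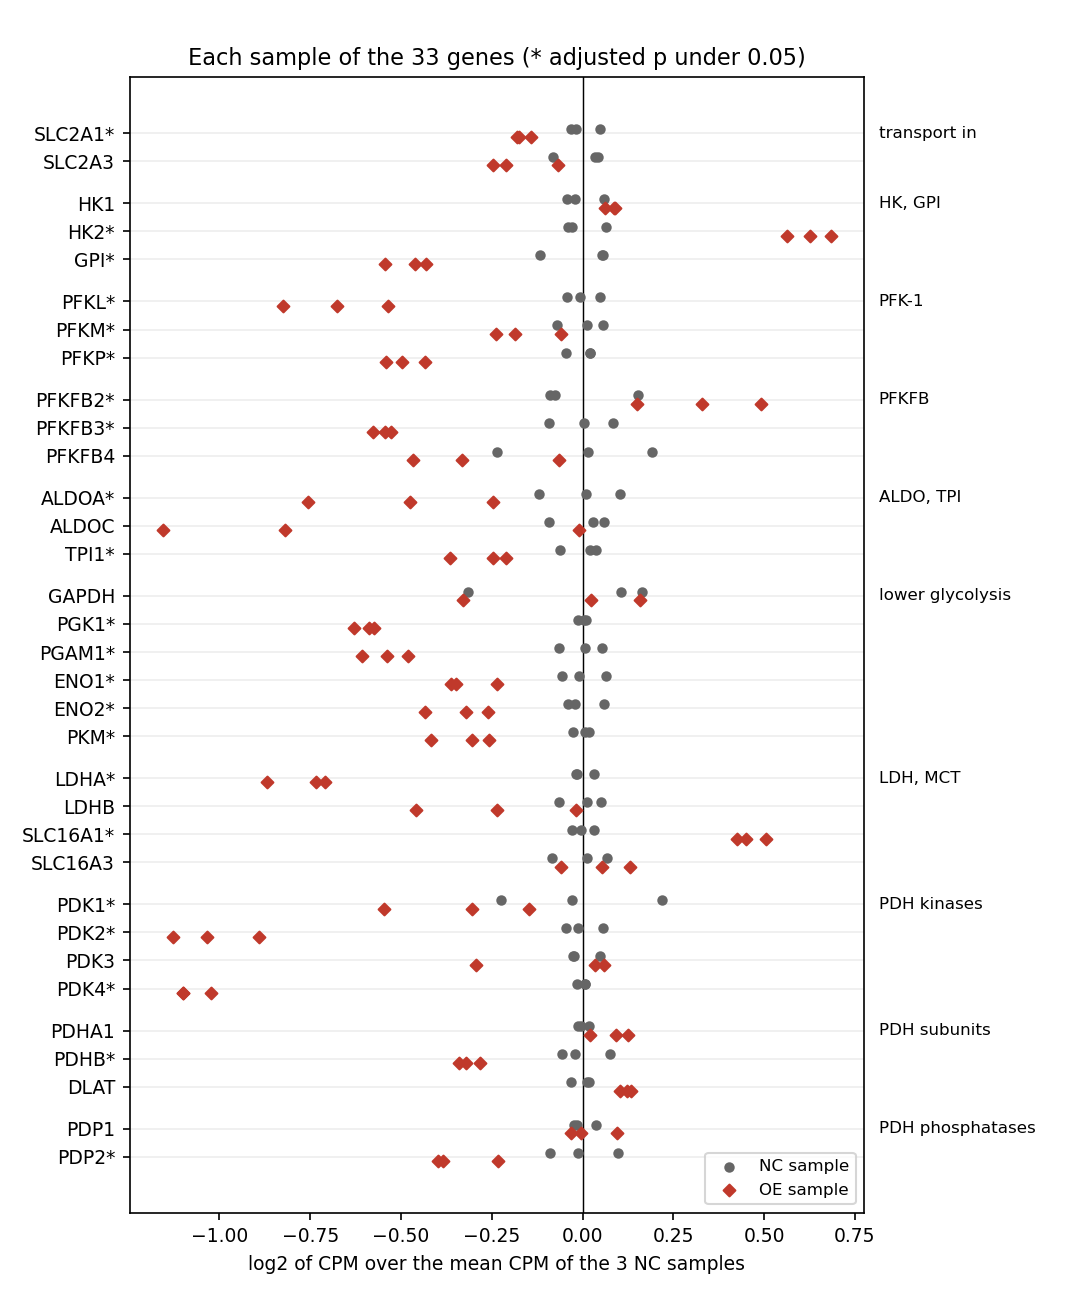
Log2 of the CPM of each sample over the mean CPM of the 3 NC samples, for the 33 genes in the order of the pathway. Circles are NC samples, diamonds are OE samples, and a star marks an adjusted p under 0.05. For 17 genes the 3 diamonds lie wholly to the left of the circles, and for 5 wholly to the right.

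**Figure D2:**
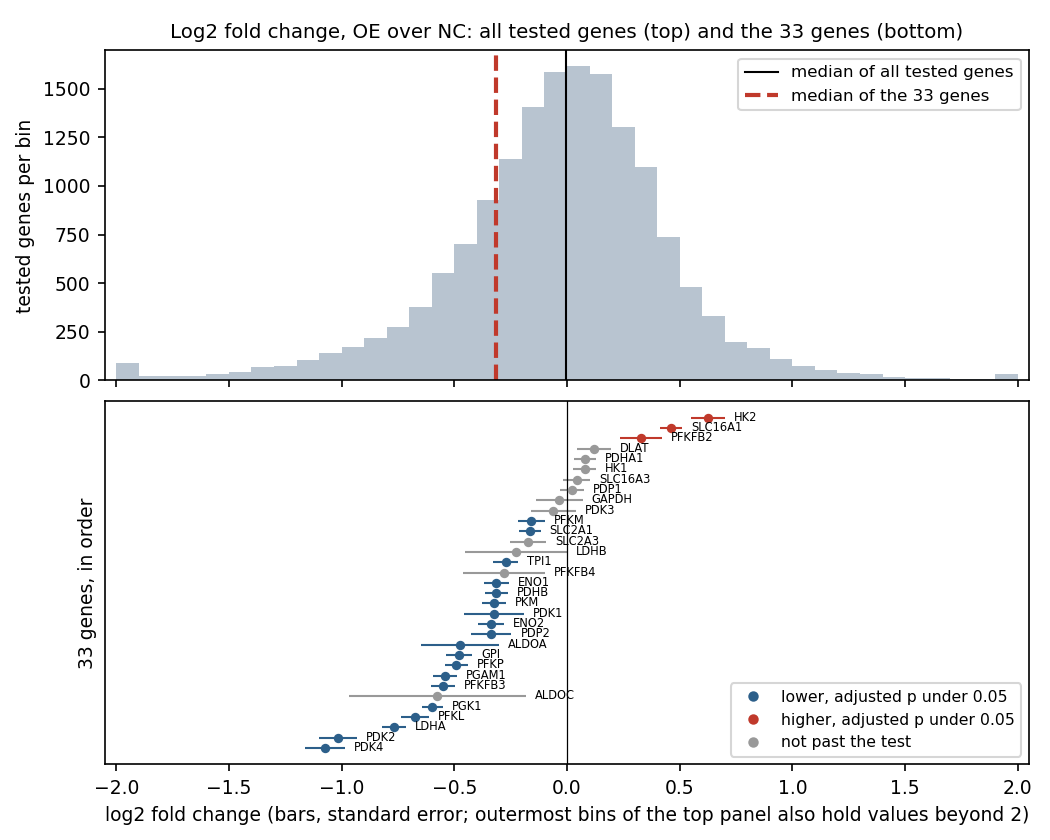
Log2 fold changes of OE over NC for all 15878 tested genes (histogram) and for the 33 genes in order of size (points, with bars of 1 standard error). The dashed line marks the median of the 33 genes, -0.31, left of the median of all tested genes.

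At the entry of glucose, both transporters had small differences. SLC2A1, the glucose carrier of most cultured cells (GLUT1), had 149 ± 4.51 CPM in NC and 133 ± 1.96 in OE (± is the SD over n = 3 samples here and below). CPM is the count of a gene scaled to the size of its library. Its log2 fold change was -0.17 (SE 0.05, adjusted p = 0.0075). SLC2A3 (GLUT3), a carrier of high affinity, had a log2 fold change of -0.17 (SE 0.08, adjusted p = 0.078) and its groups overlapped. SLC2A3 held 12.7% of the FPKM of the pair in both groups.

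Glucose is trapped in the cell by a hexokinase. HK2, the inducible hexokinase of mitochondria, had 14.6, 15.6 and 14.5 CPM in the NC samples and 22.0, 23.9 and 23.0 in OE. All OE samples were above all NC samples. The log2 fold change was 0.63 (SE 0.08, adjusted p = 8.9e-07). HK1, the hexokinase of most tissues, had 91.3 ± 3.43 CPM in NC and 96.4 ± 0.950 in OE, with a log2 fold change of 0.08 that did not pass (SE 0.05, adjusted p = 0.2). Of the FPKM of HK1 and HK2, HK2 held 14.8% ± 0.834 in NC and 20.2% ± 0.669 in OE. By an exact permutation test, two-sided, p was 0.1, the lowest value that groups of 3 can give. A hexokinase outside the 33 genes was far more abundant. HKDC1, a further member of the family, had 91.5 ± 1.22 FPKM in NC and 140 ± 1.48 in OE, and its log2 fold change was 0.59 (SE 0.05, adjusted p = 2.3e-09). With HKDC1 counted in, it held 85.4% of hexokinase FPKM in NC and 88.6% in OE, and the share of HK2 was 2.16% and 2.30%, with overlapping groups. The next enzyme, GPI, which converts glucose 6-phosphate to fructose 6-phosphate, had 84.0 ± 5.71 CPM in NC and 60.3 ± 2.44 in OE (log2 fold change -0.48, SE 0.06, adjusted p = 8.1e-07).

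Phosphofructokinase-1 makes the committed step of glycolysis, and all 3 of its subunit genes were lower. PFKL, the liver type, had 105, 98.4 and 101 CPM in the NC samples and 63.4, 69.9 and 57.3 in OE. The groups did not overlap and the log2 fold change was -0.67 (SE 0.06, adjusted p = 1.6e-08). PFKP, the platelet type, had 68.6% of the FPKM of the 3 genes in NC, and its log2 fold change was -0.49 (SE 0.05, adjusted p = 6.2e-08). PFKM, the muscle type, overlapped between groups and passed narrowly at -0.16 (SE 0.06, adjusted p = 0.031). It lost that call in 11 of the 16 alternative analyses. The share of PFKL went from 17.7% ± 0.305 to 15.3% ± 0.750 and that of PFKM from 13.7% ± 0.293 to 17.0% ± 0.259. Neither pair of groups overlapped (exact permutation p = 0.1 each).

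The PFKFB enzymes make and remove fructose 2,6-bisphosphate, the strongest activator of phosphofructokinase-1. PFKFB3, the form with the highest kinase activity, had 136, 143 and 127 CPM in the NC samples and 92.7, 93.7 and 90.6 in OE. Every OE sample was lower than every NC sample, and the log2 fold change was -0.55 (SE 0.05, adjusted p = 3.1e-08). PFKFB2, known as the heart form, was higher by 0.33 (SE 0.09, adjusted p = 0.0063), although OE replicate 2 and NC replicate 2 had nearly the same level, 16.5 CPM each. PFKFB4 was low, with 74 to 104 counts per sample, and did not pass (log2 fold change -0.28, SE 0.18, adjusted p = 0.22). PFKFB3 held 92.1% ± 0.388 of the FPKM of the family in NC and 87.3% ± 1.53 in OE.

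The aldolases split the 6-carbon sugar. ALDOA, the main aldolase outside the liver, had only 65 to 113 counts per sample, with a log2 fold change of -0.48 (SE 0.17, adjusted p = 0.028) that lost its call in 7 of the 16 alternatives. Far more counts lay in a protein-coding row on the same strand, ENSG00000285043.3, which shares 92.9% of the coding bases of ALDOA and held 9005 to 12565 counts. The log2 fold change of that row was -0.36 (SE 0.06, adjusted p = 1.5e-05), and ALDOA with the row added also had -0.36 (adjusted p = 1.5e-05). ALDOA in its own row had an adjusted p of up to 0.141 over the other alternatives, which were not run with the row added. ALDOC, the brain aldolase, had 8 to 18 counts and did not pass (log2 fold change -0.58, SE 0.39, adjusted p = 0.24). TPI1, which interconverts the triose phosphates, had 892 ± 32.5 CPM in NC and 738 ± 41.3 in OE (log2 fold change -0.27, SE 0.05, adjusted p = 0.00027).

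In lower glycolysis 5 of 6 genes fell and GAPDH did not pass. PGK1, the enzyme that makes the first ATP of the pathway, had 246, 249 and 249 CPM in the NC samples and 166, 165 and 160 in OE. The samples of each group were close together and far from the other group, with a log2 fold change of -0.60 (SE 0.05, adjusted p = 1.6e-09). PGAM1, the phosphoglycerate mutase of most tissues, had 364, 335 and 353 CPM in NC and 241, 251 and 230 in OE. It fell by 0.54 on the log2 scale with no overlap (SE 0.05, adjusted p = 2.7e-08). The enolases ENO1, the general form, and ENO2, the neuronal form, had log2 fold changes of -0.31 (SE 0.05, adjusted p = 7.1e-05) and -0.34 (SE 0.06, adjusted p = 6.3e-05). ENO2 held 4.66% of enolase FPKM in NC and 4.58% in OE, with overlapping groups. PKM, the pyruvate kinase of most tissues, had 2021 ± 31.3 CPM in NC and 1614 ± 91.0 in OE (log2 fold change -0.32, SE 0.05, adjusted p = 4.7e-05).

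GAPDH, which oxidises glyceraldehyde 3-phosphate and is often used as a reference gene, was the most abundant of the 33, with 919 ± 167 FPKM in NC. It had 2672, 1918 and 2567 CPM in the NC samples and 2423, 2664 and 1897 in OE. NC replicate 2 and OE replicate 3 were low and the other 4 samples high, so the groups overlapped. The log2 fold change was -0.03 (SE 0.10, adjusted p = 0.81), and its sign changed when NC replicate 1, NC replicate 3 or OE replicate 3 was left out. The spread of GAPDH within groups, an SD of 0.257 on the log2 CPM scale, ranked 6 from the top among the 5339 tested genes whose mean count reached 1000. The median of those genes was 0.0664 and the value of PGK1 0.0217. Its 16 rows of processed copies held 50 to 81 counts together in any sample, against 67504 to 105342 for GAPDH. The antisense gene RP5-940J5.9, which shares 17.6% of the exonic bases of GAPDH, had a mean of 17.7 counts in NC and 15.0 in OE. Reads that map to several places were not counted by the authors and their number for GAPDH is not known here.

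**Figure D3:**
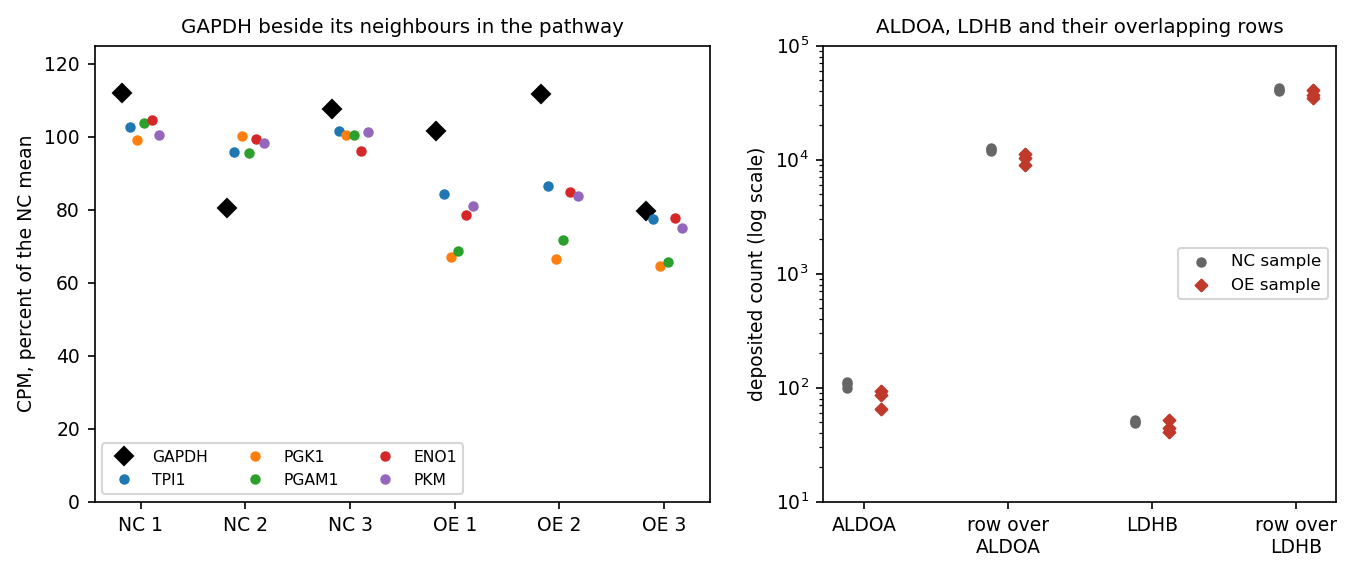
Left, CPM in each sample as a percent of the NC mean for GAPDH (diamonds) and for TPI1, PGK1, PGAM1, ENO1 and PKM (circles). GAPDH is low in NC replicate 2 and OE replicate 3, while the other genes are lower in all OE samples. Right, deposited counts on a log scale for ALDOA and LDHB and for the rows that overlap them, which hold 9005 or more counts per sample against at most 113.

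Taken as a sum, the 33 genes held 1.03%, 0.949% and 1.01% of all counts in the NC samples and 0.839%, 0.890% and 0.779% in OE. The OE samples were all lower. The difference of the means was -0.161 percentage points, and the exact permutation test gave the lowest possible p, 0.1. Without GAPDH the sum was 0.758% ± 0.00854 in NC and 0.605% ± 0.0196 in OE. The 15 enzymes from HK1 to PKM held 0.832% ± 0.0454 in NC and 0.695% ± 0.0555 in OE. By gene, 11 of these 15 fell, HK2 rose, and HK1, ALDOC and GAPDH did not pass. Summed as FPKM, in which GAPDH weighs most, all 33 held 0.731% in NC and 0.664% in OE and the groups overlapped (exact permutation p = 0.2).

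**Figure D4:**
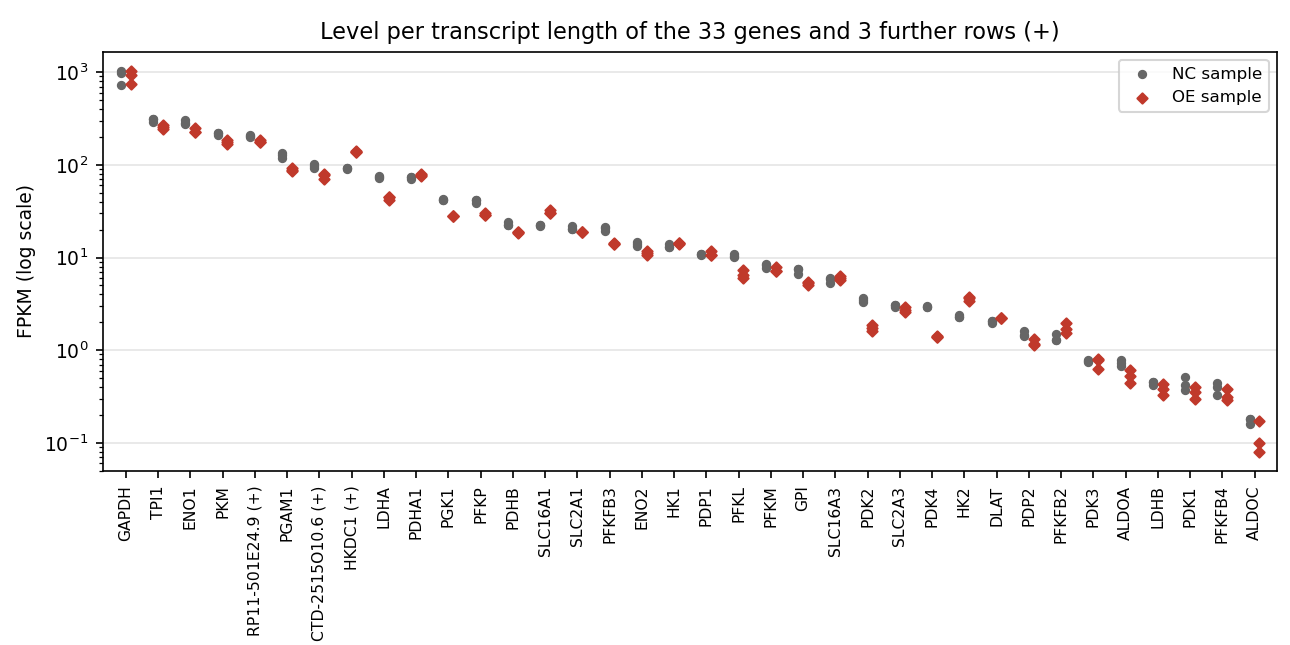
FPKM on a log scale in each NC sample (circles) and OE sample (diamonds), genes ordered by their NC mean. The + marks rows outside the 33 genes, namely HKDC1 and the rows that overlap ALDOA and LDHB. GAPDH is the most abundant and ALDOC the least, and HKDC1 lies above both HK1 and HK2.

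At the step between pyruvate and lactate, LDHA showed the clearest fall of the 33 genes by adjusted p. LDHA, the subunit of the muscle type of lactate dehydrogenase, had 483, 482 and 499 CPM in the NC samples and 299, 294 and 268 in OE. The highest OE sample was far below the lowest NC sample. The log2 fold change was -0.77 (SE 0.05, adjusted p = 1.6e-10), a decrease of 41.3%. LDHA (plus strand, chr11:18394560-18408425 in GENCODE release 44) shares no exonic base with another gene. LDHB, the subunit of the heart type, had 1.44, 1.48 and 1.36 CPM in NC and 1.41, 1.04 and 1.21 in OE. These values overlap and rest on 41 to 52 counts per sample (log2 fold change -0.23, SE 0.23, adjusted p = 0.43). As with ALDOA, a protein-coding row on the same strand, ENSG00000285854.1, shares 92.2% of the coding bases of LDHB and held 34669 to 42307 counts. With that row added, LDHB fell by 0.22 on the log2 scale (adjusted p = 0.0013). LDHB in its own row did not pass in any other alternative, with an adjusted p of up to 0.744. LDHB then held 73.5% ± 0.0989 of the FPKM of both subunits in NC and 80.3% ± 0.562 in OE, with no overlap (exact permutation p = 0.1). Without it the share was 0.587% and 0.851%. Both additions were chosen after the counts were seen.

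The lactate transporters moved differently from LDHA. SLC16A1 (MCT1), which carries lactate and pyruvate with a proton, had 154 ± 3.26 CPM in NC and 212 ± 6.04 in OE, higher in 3 of 3 OE samples (log2 fold change 0.46, SE 0.05, adjusted p = 1e-07). The antisense gene SLC16A1-AS1 shares 3.64% of the exonic bases of SLC16A1 and had a mean of 781 counts in NC and 1393 in OE. SLC16A3 (MCT4), the exporter of cells with much glycolysis, had a log2 fold change of 0.04 (SE 0.06, adjusted p = 0.58). Its share of the FPKM of the pair was 20.5% ± 1.2 in NC and 16.2% ± 1.2 in OE (exact permutation p = 0.1).

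Of the 4 pyruvate dehydrogenase kinases, PDK2 and PDK4 fell by about the same factor. PDK2, the kinase most widely expressed in tissues, had 20.5, 20.0 and 21.5 CPM in the NC samples and 11.2, 9.46 and 10.1 in OE. PDK4, the kinase induced by fasting and fatty acids, had 14.5, 14.5 and 14.3 CPM in NC and 7.09, 6.73 and 6.72 in OE. Neither gene had overlapping groups. The log2 fold changes were -1.01 (SE 0.08, adjusted p = 3.4e-09) and -1.07 (SE 0.09, adjusted p = 3.8e-09), or decreases of 50.5% and 52.5%. PDK2 shares 38.6% of its exonic bases with SAMD14 on the opposite strand, whose row had a mean of 110 counts in NC and 89.3 in OE, while PDK4 shares none. PDK1, a target of hypoxia-inducible factor, was low at 189 to 283 counts and at the edge of the threshold (log2 fold change -0.33, SE 0.13, adjusted p = 0.049). Its groups overlapped and the call was lost in 10 of the 16 alternatives. AC093818.1 on the opposite strand shares 3.00% of the exonic bases of PDK1. Its row had a mean of 127 counts in NC and 46.3 in OE, and its part in the PDK1 counts was not tested. PDK3 did not pass (log2 fold change -0.06, SE 0.10, adjusted p = 0.65). In FPKM, PDK2 held 45.8% ± 1.43 of the kinases in NC and 41.2% ± 0.962 in OE, and PDK4 38.5% ± 0.562 and 33.3% ± 1.76. PDK3 went the other way, from 10.0% ± 0.393 to 17.4% ± 1.24, and PDK1 from 5.70% ± 0.881 to 8.22% ± 0.854. Each of the 4 shares had groups that did not overlap. Over all 17 shares compared, the smallest exact p was 0.1 and the smallest adjusted exact p 0.142, and this design cannot reach 0.05.

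**Figure D5:**
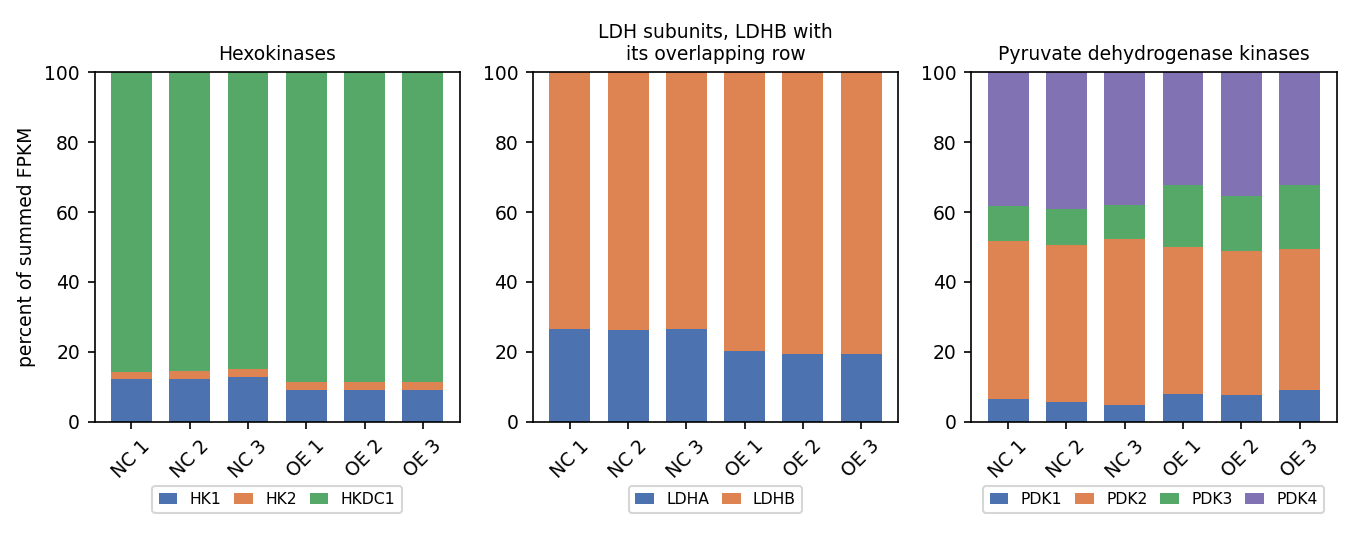
Percent of the summed FPKM of each family in each sample. HKDC1 fills most of the hexokinases, LDHB with its overlapping row rises from 73.5% to 80.3% of lactate dehydrogenase, and PDK3 takes a larger part of the kinases in all OE samples.

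Of the 3 subunits of the complex among the 33 genes, 1 passed the test. PDHA1, the alpha subunit that the kinases phosphorylate, had 354, 352 and 359 CPM in the NC samples and 378, 387 and 360 in OE. The OE samples were all higher, the lowest of them by little, and the log2 fold change of 0.08 did not pass (SE 0.05, adjusted p = 0.19). PDHB, the beta subunit of the same enzyme, fell by 0.31 (SE 0.05, adjusted p = 3.4e-05), from 118 ± 5.72 to 94.7 ± 1.92 CPM. DLAT, the acetyltransferase core, had 16.6 ± 0.313 CPM in NC and 18.0 ± 0.196 in OE (log2 fold change 0.12, SE 0.08, adjusted p = 0.2). PDHA1 and DLAT share 19.3% and 13.3% of their exonic bases with genes on the opposite strand.

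Of the phosphatases, PDP1, the calcium-activated form, had 65.1, 67.4 and 64.7 CPM in the NC samples and 65.6, 64.4 and 70.3 in OE. The groups overlapped (log2 fold change 0.02, SE 0.05, adjusted p = 0.77). PDP2 had 12.6, 13.3 and 14.4 CPM in NC and 10.3, 10.2 and 11.4 in OE, without overlap. It fell by 0.34 on the log2 scale (SE 0.09, adjusted p = 0.0038), and its share of phosphatase FPKM was 12.2% ± 0.788 in NC and 9.80% ± 0.187 in OE.

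Beyond the 33 genes, 106 genes of neighbouring pathways were listed and 81 could be tested. Of these 23 rose (28.4%) and 25 fell (30.9%), near the 24.9% and 23.7% of all tested genes, and their median log2 fold change was -0.04. Of 8 other glucose transporters tested 2 fell, SLC2A11 with the smallest adjusted p (log2 fold change -0.59, adjusted p = 1.5e-05). Of 5 other glycolytic isozymes 2 rose, HKDC1 with the smallest adjusted p, and 1 fell, BPGM, which makes 2,3-bisphosphoglycerate (-0.58, adjusted p = 6.6e-05). Of 4 other lactate genes SLC16A7 (MCT2) rose (0.56, adjusted p = 7.2e-05) and BSG, the chaperone of MCT1 and MCT4, fell (-0.21, adjusted p = 0.0028). A further 5 genes belong to the mitochondrial pyruvate carrier, to pyruvate dehydrogenase or to its regulation. Of these, PDHX, a structural subunit of the complex, rose (0.25, adjusted p = 0.0075) and MPC2, a subunit of the carrier, fell (-0.38, adjusted p = 0.00034).

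In gluconeogenesis, 1 of 4 tested genes rose past 2-fold. PCK2, the mitochondrial phosphoenolpyruvate carboxykinase, had 25.3 ± 1.82 CPM in NC and 60.7 ± 4.85 in OE (log2 fold change 1.26, SE 0.07, adjusted p = 7.5e-12). SLC37A4, the glucose 6-phosphate carrier of the endoplasmic reticulum, fell (-0.72, adjusted p = 6e-05). In the pentose phosphate pathway 3 of 9 rose, led by RPE (0.50, adjusted p = 1.7e-06), and 4 fell, led by the transketolase TKT (-0.54, adjusted p = 5e-08). In glycogen metabolism 2 of 9 rose, led by glycogenin GYG1 (0.28, adjusted p = 0.005), and 3 fell, led by the phosphoglucomutase PGM1 (-0.70, adjusted p = 2.6e-09).

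Among genes of the hypoxia-inducible factors some rose and others fell. Of 8 in the pathway 3 rose and 3 fell (37.5% each), against 24.9% and 23.7% of all tested genes. The part of these factors in the results above was not tested. EPAS1 (HIF-2 alpha) rose from 258 ± 3.99 to 499 ± 24.2 CPM (log2 fold change 0.95, SE 0.05, adjusted p = 3.3e-12), and the oxygen sensor EGLN2 fell (-0.75, adjusted p = 0.001). EGLN3 fell by more than 2-fold (-1.38, adjusted p = 0.0016) on 12 to 32 counts. Of 17 known targets outside glycolysis 5 rose (29.4%) and 7 fell (41.2%). VEGFA, the vascular growth factor, rose from 131 ± 6.83 to 369 ± 7.23 CPM (log2 fold change 1.50, adjusted p = 3.2e-15), and the carbonic anhydrase CA12 from 6.47 ± 0.579 to 19.7 ± 2.66 (1.61, adjusted p = 6.6e-11). Of 12 other regulators of sugar use 5 rose (41.7%) and 2 fell (16.7%). TXNIP, an arrestin-like protein that limits glucose uptake, rose from 16.3 ± 1.35 to 50.7 ± 1.55 CPM (log2 fold change 1.64, SE 0.07, adjusted p = 1.4e-13), and its relative ARRDC4 rose as well (1.13, SE 0.14, adjusted p = 1.5e-06). MLXIP (MondoA), the sugar-sensing factor known to drive both, fell slightly (-0.16, adjusted p = 0.03). MLX, on the same list, went the other way and rose (0.39, SE 0.07, adjusted p = 0.00012). The part of either in the rise of TXNIP and ARRDC4 was not tested.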

How the data were processed

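RNA of 6 HK-2 samples was extracted with TRIzol and prepared with a stranded mRNA kit. The authors trimmed reads with FASTX-Toolkit, aligned them to GRCh38 with HISAT2 and kept uniquely mapped reads. The authors deposited counts per gene without normalization for 31369 genes, and FPKM values, scaled to transcript length and mapped fragments, for 30896 genes. The list of builds in the submitters' processing notes also names a mouse build. The annotation, the counting program and its use of strand are not given in the sources used here. With versions dropped, GENCODE release 44 held 99.8% of the gene identifiers and gave positions and overlaps.

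Groups and replicate numbers came from the labels, whose cell line entries carry different numbers after HK while the cell type entry is HK-2 in all samples. The deposited counts were tested with edgeR 4.0.16 in R 4.3.3 (filterByExpr, TMM, quasi-likelihood F-test on group, Benjamini-Hochberg over 15878 genes). Calls were made at an adjusted p under 0.05, and each standard error is the fold change over the square root of F. Shares and sums were compared by exact two-sided permutation tests. DESeq2 1.42.0, the test of the study, and limma 3.58.1 on the deposited FPKM (log2 with a pseudocount of 1 or of 0.1) were alternatives. Other scalings, no filter, a minimum fold of 1.2 under the null, the replicate block and each sample left out in turn were tried as well. Added after the data had been seen were the sum of overlapping rows with ALDOA and LDHB, a hexokinase family with HKDC1 and sums without GAPDH. The scripts were tested on simulated data. Tables were handled with Python 3.11.15, pandas 2.3.3 and numpy 2.4.6, and figures drawn with matplotlib 3.10.9.

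The members and lists were chosen with earlier results of these data known. Values in every sample are given for members called with an absolute log2 fold change of at least 0.5 and for GAPDH, LDHA, LDHB, PDHA1, PDP1, PDP2 and PPM1K. Of each other list, the gene with the smallest adjusted p in each direction and any past 2-fold are named, except where an item is not reported here. RP5-940J5.9, SAMD14, SLC16A1-AS1, AC093818.1, MLX and the overlapping rows were named after their values were seen, as were the marker genes given as lower or higher. At 34635770 or more counts per sample, counting error is small except for members under about 100 counts. Reads carry no molecular identifiers.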

Additional observations from a re-analysis of the deposited data

How the results depend on the processing

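Over 16 alternatives, all 22 called genes kept their direction, and 11 of them stayed past the threshold in each. PFKM lost its call in 11, PDK1 in 10 and ALDOA in 7. Of the 11 genes that were not called, PDP1, PDK3 and GAPDH changed sign near 0. SLC2A3 gained a call in 2 alternatives (adjusted p down to 0.034), upper quartile normalization and without OE replicate 1, and LDHB with its overlapping row added. PDP1 had a log2 fold change of -0.017 with upper quartile normalization. With each sample left out in turn it ranged from -0.020 to 0.050, PDK3 from -0.12 to 0.049 and GAPDH from -0.17 to 0.089. The causes were not tested. A test against a fold change of 1.2, which asks for more by construction, left 9 of the 33 genes lower, and 12 higher and 9 lower of the neighbouring pathways. Of all 15878 genes it left 1881 lower and 1694 higher. With limma, the number of genes past 2-fold was 1 on log2(FPKM + 0.1) and 0 on log2(FPKM + 1) with or without a filter, where the pseudocount shrinks the fold changes of low genes. The neighbouring genes lower were then 14, 14 and 12. Of all genes, limma called 3057 of 16906 lower on log2(FPKM + 0.1) and 3074 of 16906 on log2(FPKM + 1). Without the filter it called 2499 of 30896 lower. DESeq2 called 16 of the 33 genes lower and 3 higher, beside 3162 lower and 3548 higher of the 17988 genes it tested.

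With each sample left out in turn, 15 to 18 genes were lower and 3 higher, 1 to 2 passed 2-fold, 21 to 22 neighbouring genes were higher and 18 to 22 lower, and PPM1K had a log2 fold change of 6.08 to 6.75. Of the 16146 to 16264 genes tested in these fits, 3272 to 3691 were lower and 3512 to 3835 higher. The summed difference was -0.188 to -0.132 percentage points for all 33 genes and -0.164 to -0.109 for the enzymes from HK1 to PKM. As FPKM these were -0.0665 and -0.0582. Without the filter on low counts, the median log2 fold change of all genes was -0.13.

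Same-numbered samples did not deviate together (correlations of -0.0147, -0.133 and -0.130). Whether they were handled together is not given in the sources used here, and these correlations cannot decide it. With the replicate block 17 genes were lower and 3 higher. The depth limits ALDOC, LDHB in its own row, PFKFB4 and EGLN3.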

Other observations

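Within the pentose phosphate pathway the enzymes were split. The genes in this paragraph were chosen after their values were seen. In the oxidative branch PGD, an enzyme that makes NADPH, fell by 0.28 (SE 0.05, adjusted p = 4.8e-05) on the log2 scale, while the lactonase PGLS rose by 0.28 (SE 0.09, adjusted p = 0.014). In the other branch the transaldolase TALDO1 fell by 0.16 (adjusted p = 0.03), beside the fall of TKT, while the isomerase RPIA rose by 0.31 (adjusted p = 0.007), beside the rise of RPE. GYS1, the glycogen synthase of muscle and most tissues, fell from 19.7 ± 1.59 to 13.2 ± 1.04 CPM (log2 fold change -0.58, SE 0.09, adjusted p = 1.2e-05). PGM2 rose by 0.33 (adjusted p = 0.018) while PGM1 fell.

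Among targets of hypoxia-inducible factors, ADM, a vasodilator peptide, rose from 13.1 ± 1.97 to 23.7 ± 1.22 CPM (log2 fold change 0.86, SE 0.09, adjusted p = 1.8e-07). P4HA1, a collagen prolyl hydroxylase, fell by 0.34 (adjusted p = 0.00012). BNIP3 and NDRG1 had log2 fold changes of -0.04 and -0.02 and did not pass (adjusted p = 0.57 and 0.75). HIF1A had 446 ± 21.8 CPM in NC and 533 ± 37.3 in OE (log2 fold change 0.26, SE 0.06, adjusted p = 0.00068). MYC rose by 0.31 (SE 0.06, adjusted p = 7.4e-05). These genes too were chosen after their values were seen.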
